A study of Mus musculus with 27 samples.

Results

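The genes described here are Trp53, which encodes the transcription factor p53, the genes of its inhibitors Mdm2 and Mdm4, and 4 genes whose products stop cell division or return p53 to rest: Cdkn1a, Ccng1, Btg2 and Ppm1d. They were chosen by gene symbol, and all 7 were found among the 38582 genes of the RNA table and among the 12452 genes that were abundant enough to be tested. Their RNA was followed in 4 RNA libraries, and at their loci the deposited peaks of 17 ChIP-seq lists (chromatin immunoprecipitation with sequencing) were read. All samples came from mouse embryonic stem (ES) cells, pluripotent cells kept in a medium with serum and leukemia inhibitory factor, and the labels do not name the line.

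The tested RNA libraries came from cells with a short hairpin RNA against Wdr43 (shWDR43, 2 libraries), and their control from cells with a control hairpin (shCtl, 2 libraries), both labelled as wild type in genotype. WDR43, the protein whose RNA the hairpin targets, has WD repeats and works in the nucleolus. There it takes part in the maturation of ribosomal RNA. RNA polymerase II (Pol II) was mapped in 2 shWDR43 and 2 shCtl libraries for each of 3 forms: hypophosphorylated Pol II (hypoP, antibody 8WG16), Pol II phosphorylated on serine 5 (Ser5P, enriched near the starts of genes) and on serine 2 (Ser2P, enriched toward their ends). WDR43 itself was mapped through a FLAG tag in 1 library each of FB cells, cFB knock-in cells, and Fbio-tagged cells treated with DRB, with actinomycin D (ActD) or with the solvent DMSO. DRB inhibits the kinase that releases paused Pol II, and ActD intercalates into DNA and blocks transcription. Doses, times, the number of hairpins and whether the ChIP libraries 1 and 2 are biological replicates are not stated in the labels, so that the spread between ChIP libraries may be technical, while the RNA table itself names 2 biological replicates per group.

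p53 is a DNA-binding protein that is made all the time and kept scarce, because the ubiquitin ligase Mdm2 marks it for destruction and Mdm4, a relative of Mdm2, covers its activating domain. DNA damage, and also a block in ribosome production, which lets free ribosomal proteins bind Mdm2, frees p53, so that its protein level can change with no change in its RNA. Free p53 switches on Cdkn1a, whose product p21 inhibits cyclin-dependent kinases, together with its own inhibitor Mdm2, and mouse ES cells divide fast, with a short gap phase before DNA replication and little p21. None of the files measured p53 protein.

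p53 binds a 20-base element made of a pair of 10-base units (decamers). The 250 bases before each RefSeq start of the 7 genes (GRCm38.p6, 9 windows in all, since Cdkn1a and Mdm4 each have a pair of starts) were searched on both strands for the p53 consensus. The windows of the genes with the largest RNA changes are shown, with and without a match. They run 5′ to 3′ along the gene, and capitals mark decamers that match the consensus exactly and, in Cdkn1a and Ccng1, a full element with at most 1 mismatch. In the windows of the downstream Cdkn1a start and of Btg2, which hold no exact decamer, capitals mark GC boxes (GGGCGG) and, in Btg2, also CCAAT boxes on the printed strand.
Cdkn1a upstream start, chr17:29090729-29090978, plus strand: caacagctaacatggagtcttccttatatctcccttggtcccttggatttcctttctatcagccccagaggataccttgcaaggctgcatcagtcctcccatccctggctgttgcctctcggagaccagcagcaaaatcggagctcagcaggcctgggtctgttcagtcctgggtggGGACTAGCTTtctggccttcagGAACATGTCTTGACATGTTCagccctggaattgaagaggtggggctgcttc
Cdkn1a downstream start, chr17:29093519-29093768, plus strand: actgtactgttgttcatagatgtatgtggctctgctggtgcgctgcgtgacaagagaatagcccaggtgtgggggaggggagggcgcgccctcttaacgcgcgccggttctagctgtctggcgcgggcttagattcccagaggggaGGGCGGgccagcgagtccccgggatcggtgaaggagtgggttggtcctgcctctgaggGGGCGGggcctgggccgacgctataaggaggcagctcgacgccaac
Ccng1, chr11:40755287-40755536, minus strand: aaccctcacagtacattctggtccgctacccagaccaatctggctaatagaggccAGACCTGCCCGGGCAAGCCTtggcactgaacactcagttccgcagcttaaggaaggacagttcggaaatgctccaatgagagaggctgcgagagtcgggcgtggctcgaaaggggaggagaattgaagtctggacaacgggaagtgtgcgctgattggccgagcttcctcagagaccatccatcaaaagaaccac
Mdm2, chr10:117710759-117711008, minus strand: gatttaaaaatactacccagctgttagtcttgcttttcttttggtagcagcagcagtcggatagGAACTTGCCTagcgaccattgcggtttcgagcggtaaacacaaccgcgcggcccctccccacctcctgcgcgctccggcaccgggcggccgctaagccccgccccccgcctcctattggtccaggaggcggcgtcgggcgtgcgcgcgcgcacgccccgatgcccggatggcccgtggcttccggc
Btg2, chr1:134079156-134079405, minus strand: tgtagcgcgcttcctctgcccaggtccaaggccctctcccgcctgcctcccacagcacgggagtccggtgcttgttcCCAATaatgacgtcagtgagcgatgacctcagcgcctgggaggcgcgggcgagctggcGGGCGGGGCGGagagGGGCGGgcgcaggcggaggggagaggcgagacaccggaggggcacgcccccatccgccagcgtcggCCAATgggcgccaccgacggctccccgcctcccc

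In the upstream Cdkn1a window the full element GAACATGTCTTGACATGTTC lay at positions -51 to -32 from the start, and a further decamer, GGACTAGCTT, at -73 to -64. The full element of Ccng1, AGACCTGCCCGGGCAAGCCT, lay at -195 to -176. An element of this kind, with its decamers side by side and at most 1 mismatch, stood in 25 of 32807 RefSeq windows (0.0762%), of which these are 2. Single exact decamers stood in 5 of the 9 windows of the 7 genes and in 7.13% of all windows. The others were GAACTTGCCT in Mdm2 (-186 to -177), GGACTTGCCC in Trp53 (-75 to -66) and GAGCTTGCTC in Ppm1d (-132 to -123), while the windows of Btg2 and both of Mdm4 held none. These are matches of letters only, and elements beyond the 250 bases, such as those in introns, were not searched. GC boxes stood in 4 of the 9 windows (32.7% of all windows), CCAAT boxes in 5 (33.8%) and a TATA box (TATAAA) in 1, that of Trp53 (12.4%), each counted on both strands.

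The hairpin lowered its target. Wdr43 RNA was 21.2 and 20.7 FPKM (a read density per length of transcript, here on the authors' spike-in scale) in shWDR43, against 82.3 and 78.2 FPKM in shCtl, or -1.89 ± 0.12 as a log2 fold change with its SE (limma; p adjusted by Benjamini-Hochberg 0.000751). Library totals were 687051 and 681178 FPKM in shWDR43 and 1015230 and 1040750 FPKM in shCtl, and the read depth is unknown. The median log2 fold change of all tested genes was -0.39, and centring each library on its own median moved every fold change up by 0.33. The ES cell marker Pou5f1 was at 459.1 FPKM or more in every library. Of that list 0 of 11 genes were higher and 10 lower, with summed levels of 2859.1 and 2674.7 FPKM in shWDR43 and 5229.6 and 5341.2 in shCtl. Of 10 fibroblast markers, which would mark feeder cells, 6 were tested, 1 was higher (S100a4) and 1 lower (Thy1); the sums were 225 and 314.9 FPKM in shWDR43 and 165.4 and 196.6 in shCtl, with Lum and Dcn listed at 0 in every library. Of 6 primitive endoderm and 6 trophectoderm markers, 3 each were tested and 1 each was higher (Gata6 and Krt8), with sums of 6.70 to 22.8 FPKM in shWDR43 and 4.30 to 12.9 in shCtl. The part of these other cells in the results below was not tested. In such bulk samples fewer cells of a type and less RNA per cell cannot be told apart.

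Of the 7 genes, 4 were higher in shWDR43 (Mdm2, Cdkn1a, Ccng1 and Btg2), 1 was lower (Trp53) and 2, Mdm4 and Ppm1d, did not pass the threshold of an adjusted p under 0.05. Over all tested genes 6.10% were higher and 42.7% lower, and 78.1% had a log2 fold change below 0. The share of tested genes whose libraries did not overlap between the groups was not counted, which limits such statements on single genes below. The genes that rose lay between the 99.2th and the 99.7th percentile of all tested log2 fold changes. Leaving out any 1 of the 4 libraries ended these calls (adjusted p = 0.0617 to 0.113 for the 5 genes, limma), with their signs unchanged, and ended every other call of the RNA comparison too. The levels of all 7 in the 4 libraries are plotted on a log axis.

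**Figure D1:**
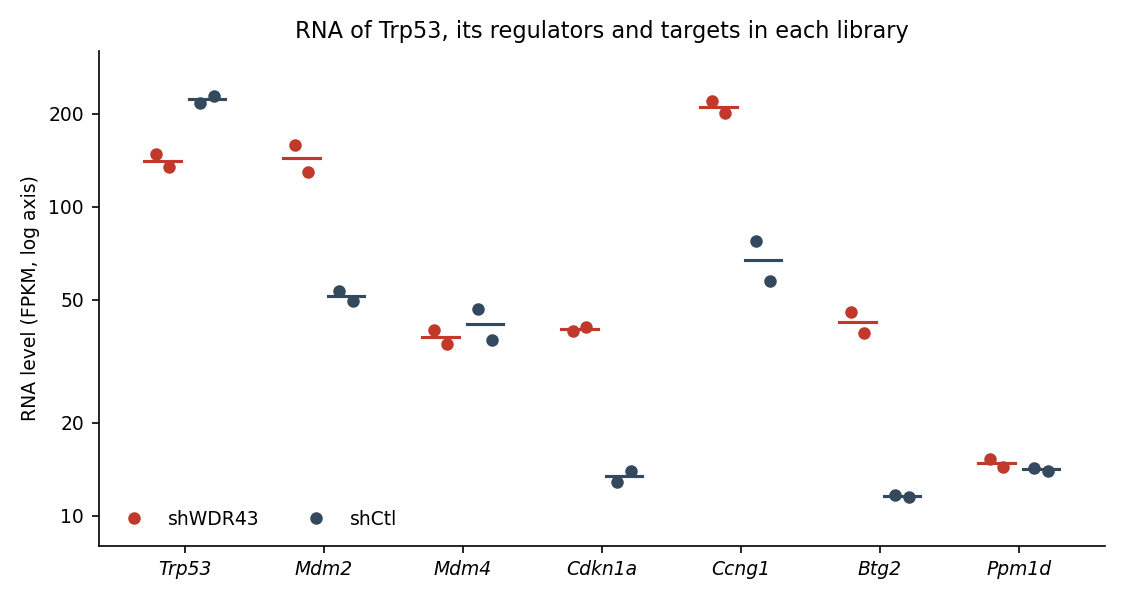
RNA level in FPKM (log axis) of the 7 genes, 1 point per library and a line at the mean, with shWDR43 (red) left of shCtl (dark blue). Mdm2, Cdkn1a, Ccng1 and Btg2 are higher in both shWDR43 libraries than in either shCtl library, Trp53 is lower, and the points of Mdm4 overlap between the groups.

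Trp53 (NM_001127233, mm9 chr11:69393861-69405375, plus strand) had 147.7 and 134.2 FPKM in shWDR43, against 217.1 and 228.3 FPKM in shCtl. Both shWDR43 libraries lay below both shCtl libraries, with means of 141 ± 9.55 FPKM in shWDR43 and 223 ± 7.92 FPKM in shCtl (SD, n = 2 each). The log2 fold change was -0.66 ± 0.12 (SE, limma, adjusted p = 0.00455). Relative to the median of all genes it was -0.26, and 28.3% of tested genes had a lower fold change. With libraries centred, Trp53 still passed (-0.33, adjusted p = 0.0303). In shCtl Trp53 was the most abundant of the 7 transcripts per unit of length. The Trp53 locus lies 1034 bp from that of Wrap53 in the table, and RefSeq has a further Wrap53 start beside that of Trp53 on the other strand. The labels do not say that strand was used in counting, and reads of the pair at their 5′ ends cannot be told apart.

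Mdm2 (NM_010786, mm9 chr10:117125961-117147772, minus strand) had 158.5 and 129.2 FPKM in shWDR43, against 53.2 and 49.7 FPKM in shCtl. The groups did not overlap: the lower shWDR43 library was above the higher shCtl library. Its means of 144 ± 20.7 FPKM in shWDR43 and 51.45 ± 2.47 FPKM in shCtl (SD, n = 2 each) differed 2.80-fold (log2 fold change 1.46 ± 0.14, SE; adjusted p = 0.00109, limma). Mdm4 (NM_008575, mm9 chr1:134886422-134921925, minus strand), the other inhibitor, had 40 and 36 FPKM in shWDR43, against 46.7 and 37.1 FPKM in shCtl, and the groups overlapped. Its log2 fold change was -0.13 ± 0.15 (SE; 95% interval -0.49 to 0.23; adjusted p = 0.503, limma), so a fall as large as that of the median gene lies within its interval. The sign of Mdm4 turned to 0.20 after centring, again short of the threshold (adjusted p = 0.243).

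The balance of inhibitor and target transcripts was also read within each library, where the scaling between libraries cancels. The ratio of Mdm2 to Trp53 RNA was 1.07 and 0.963 in shWDR43, against 0.245 and 0.218 in shCtl. Mdm2 RNA was thus about as abundant as Trp53 RNA in both shWDR43 libraries and less abundant in both shCtl libraries. Without a pseudocount the ratio differed by 2.14 on the log2 scale (4.40-fold). With a pseudocount of 1 FPKM, where the scaling no longer cancels fully, it differed by 2.12 (4.34-fold). The exact two-sided permutation p was 0.333 in each case, the smallest that 2 against 2 libraries can give. The ratio of Mdm2 to Mdm4 was 3.96 and 3.59 in shWDR43, against 1.14 and 1.34 in shCtl. The ratio of Mdm4 to Trp53 was 0.271 and 0.268 in shWDR43, against 0.215 and 0.163 in shCtl.

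Cdkn1a (NM_001111099, mm9 chr17:29227931-29237667, plus strand), the gene of the kinase inhibitor p21, had 39.7 and 40.9 FPKM in shWDR43, against 12.9 and 14 FPKM in shCtl. Libraries within a group lay close together and the groups were far apart, with means of 40.3 ± 0.849 FPKM in shWDR43 and 13.45 ± 0.778 FPKM in shCtl (SD, n = 2 each). The log2 fold change was 1.52 ± 0.13 (SE, limma, adjusted p = 0.00102), and the means differed 2.996-fold. Btg2 (NM_007570, mm9 chr1:135971442-135975732, minus strand), an antiproliferative adaptor that recruits the deadenylase complex to mRNA, had 45.8 and 39 FPKM in shWDR43, against 11.7 and 11.5 FPKM in shCtl. Again the groups did not overlap, and its log2 fold change of 1.78 ± 0.14 (SE, limma, adjusted p = 0.000992; 3.66-fold) was the largest of the 7. In shCtl Btg2 was the least abundant of the 7 transcripts.

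Ccng1 (NM_009831, mm9 chr11:40562054-40568788, minus strand) encodes cyclin G1, an atypical cyclin that binds a subunit of protein phosphatase 2A and acts on Mdm2. It had 219.7 and 201.2 FPKM in shWDR43, against 77.3 and 57.6 FPKM in shCtl. All shWDR43 values were above all shCtl values, although the shCtl libraries were farther apart than for Cdkn1a or Btg2, and the log2 fold change was 1.64 ± 0.16 (SE, limma, adjusted p = 0.00111; 3.12-fold). Ppm1d (NM_016910, mm9 chr11:85124756-85160573, plus strand), the gene of the phosphatase Wip1, which removes activating phosphates from p53 and its kinases, had 15.3 and 14.4 FPKM in shWDR43, against 14.3 and 14 FPKM in shCtl. All 4 values lay between 14 and 15.3 FPKM, and the shWDR43 values were above the shCtl values by a margin smaller than the spread within shWDR43. Its log2 fold change was 0.06 ± 0.13 (SE; 95% interval -0.24 to 0.37; adjusted p = 0.697, limma), and after centring it was 0.39 and passed the threshold (adjusted p = 0.0290). In the authors' deposited table the signed fold changes were 2.79 for Mdm2, 2.99 for Cdkn1a, 3.12 for Ccng1, 3.63 for Btg2, 1.05 for Ppm1d, -1.10 for Mdm4 and -1.58 for Trp53.

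The order of the 7 levels per unit of length differed between the groups. In shWDR43, Ccng1 stood first at 210.45 ± 13.1 FPKM, Mdm2 and Trp53 followed at 144 ± 20.7 and 141 ± 9.55, and Ppm1d was last at 14.85 ± 0.636 (SD, n = 2). The libraries of Mdm2 and Trp53 overlapped, as did those of Btg2 (42.4 ± 4.81), Cdkn1a (40.3 ± 0.849) and Mdm4 (38.0 ± 2.83). In shCtl, Trp53 stood first at 223 ± 7.92 FPKM, followed by Ccng1 (67.45 ± 13.9), Mdm2 (51.45 ± 2.47) and Mdm4 (41.9 ± 6.79). Ppm1d (14.15 ± 0.212) and Cdkn1a (13.45 ± 0.778) touched at 14 FPKM, and Btg2 (11.6 ± 0.141) was below both.

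The genes whose pattern was nearest to that of Cdkn1a were found by the Euclidean distance of log2 values, each centred on its own mean, over the 4 libraries. They were Eng (distance 0.0780), the TGF-beta co-receptor endoglin, Ephx1 (0.124), an epoxide hydrolase, Ddit4 (0.137), a stress-induced inhibitor of mTOR signalling, Ttll6 (0.151), a tubulin glutamylase, and Sdc4 (0.152), a heparan sulfate proteoglycan. Among 12451 other tested genes Mdm2 ranked 35 (0.284), Btg2 61 (0.338) and Ccng1 92 (0.411), while Ppm1d ranked 2140, Mdm4 3645 and Trp53 8733. With 4 libraries in 2 groups this distance mostly reflects the size of the group difference.

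Upstream of p53, most genes of the regulator list were lower on the spike-in scale, though not after centring. Of 38 genes that act on p53 or Mdm2, or belong to the p53 family, 37 were tested (Trp63 was at 0.1 FPKM or less), with 25 lower, 3 higher and 9 short of the threshold, and a median log2 fold change of -0.57 (-0.24 after centring). That is 67.6% lower and 8.11% higher, against 42.7% lower and 6.10% higher over all tested genes, whose median was -0.39 (-0.06 after centring). Trp73, the p53 relative p73, rose most, with 10.6 and 9.2 FPKM in shWDR43 against 2 and 1.9 FPKM in shCtl (log2 fold change 1.88, adjusted p = 0.00102, limma). Wrap53, which encodes a protein of the telomerase holoenzyme, rose by 0.52 (adjusted p = 0.0252), a call lost without the filter on low values (adjusted p = 0.0952, limma). At the other end were the nucleolar proteins Gnl3 (nucleostemin; -1.22, adjusted p = 0.00275) and Npm1 (nucleophosmin; -1.22, adjusted p = 0.00121), both known to bind Mdm2. The call of Gnl3 was also lost without that filter (adjusted p = 0.0553, limma). Without the filter on low values 11 genes of the list were lower and 1 higher, against 2593 and 402 over all genes. After centring 12 of the list were lower and 6 higher, against 2606 and 1615 of all 12452 tested genes. Npm1 had 1686.4 and 1348 FPKM in shWDR43, against 3701.9 and 3336.3 FPKM in shCtl.

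Other arrest and antiproliferative genes split. Of 32 listed, 30 were tested (Btg4 was listed at 0 in every library and Cdkn2c was too low), with 9 higher, 3 lower and 18 short of the threshold, and a median log2 fold change of 0.24, against -0.39 over all tested genes (0.57 after centring). That is 30% higher and 10% lower, against 6.10% and 42.7% over all tested genes. Plk2, a stress-induced kinase, had 90.8 and 72.2 FPKM in shWDR43 against 23.6 and 17.5 FPKM in shCtl (1.94, adjusted p = 0.00109, limma), and Ptprv, a receptor-type phosphatase, rose by 1.68 (adjusted p = 0.00112). The kinase inhibitor gene Cdkn1c (p57, -0.99, adjusted p = 0.00759, limma) and Gadd45a, a DNA damage response gene (-0.95, adjusted p = 0.00372), were lower. The other lower gene of the list was Ccnd2 (-0.85, adjusted p = 0.00893, limma), a cyclin gene and no arrest gene. Gadd45a had 19.9 and 16.3 FPKM in shWDR43, against 32.8 and 38.7 FPKM in shCtl, so it went the opposite way to Cdkn1a in these libraries. Without the filter on low values 5 genes of the list were higher and 1 lower, and after centring 17 were higher and 1 lower, against 1615 and 2606 of all 12452 tested genes. The call of Cdkn1c was lost in both (adjusted p = 0.0821 without the filter and 0.0574 after centring, limma).

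Genes of the cyclin, kinase, RB and E2F list were mostly lower. Of 39 cyclin, cyclin-dependent kinase, RB and E2F genes 38 were tested (Ccna1 was too low), with 28 lower, 2 higher and 8 short of the threshold, and a median of -0.76 (-0.43 after centring). That is 73.7% lower and 5.26% higher, against 42.7% and 6.10% over all tested genes. Ccne1, the cyclin that drives entry into DNA replication, had 22.2 and 17.8 FPKM in shWDR43, against 71.6 and 79 FPKM in shCtl (-1.87, adjusted p = 0.00102, limma), and E2f8, a repressor of E2F targets, was at -1.85 (adjusted p = 0.000812). The genes that were higher were Rb1, the retinoblastoma protein, with 24.1 and 18.2 FPKM in shWDR43 against 8.2 and 7.2 FPKM in shCtl (1.34, adjusted p = 0.00181), and its relative Rbl2 (0.59, adjusted p = 0.0228), whose call was lost without the filter on low values (adjusted p = 0.0766, limma). Each list is shown gene by gene beside the 7 genes in the plot of fold changes.

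**Figure D2:**
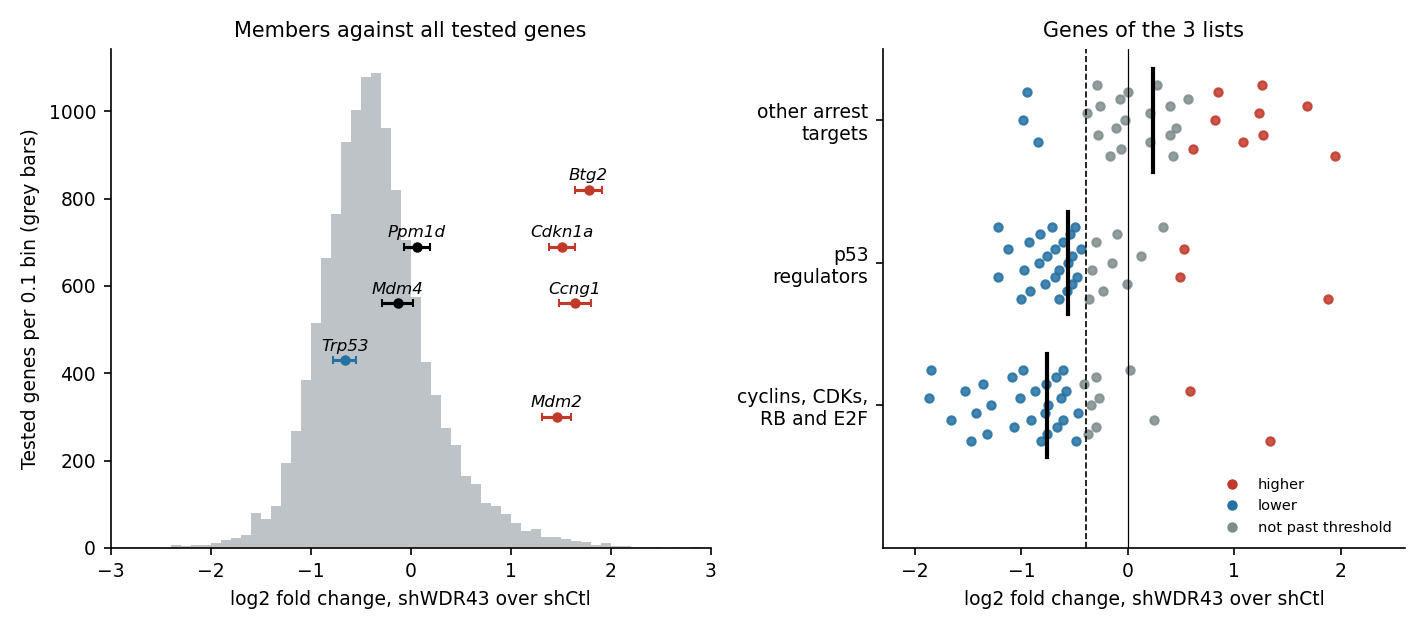
Left, log2 fold change of the 7 genes (points, with SE; height has no meaning) over the histogram of all 12452 tested genes (grey, genes per bin). Right, log2 fold change of each tested gene of the 3 lists, with a bar at each list's median (0.24, -0.57 and -0.76 from top to bottom) and a dashed line at the median of all genes (-0.39). Red marks higher, blue lower, and black (left) or grey (right) short of the threshold.

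The RNA of genes that share the promoter element was read as well. Of the 25 genes with the full element in a RefSeq window, 6 were tested, with 3 higher and 1 lower, and without Cdkn1a and Ccng1 the count was 1 higher and 1 lower of 4. Of the 2208 other genes with at least 1 exact decamer, 566 were tested, with 49 higher (8.66%) and 210 lower (37.1%) and a median log2 fold change of -0.34, against 6.10% higher, 42.7% lower and -0.39 over all tested genes. Btg2 rose most of the 7 genes and its window held no exact decamer. The windows of Trp53 and Ppm1d each held 1, and neither gene passed as higher on the spike-in scale. Elements beyond the 250 bases were not searched, and any link of decamers to these RNA levels was not tested.

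WDR43 peaks were found at all 7 loci. Within 5 kb of the locus, the FB and cFB knock-in lists held a peak at each of the 7 genes and the DMSO list at 6, all but Btg2. Over all tested loci the shares were 87.7% (FB), 84.2% (cFB knock-in) and 78.9% (DMSO), so most expressed genes had such a peak. Under DRB 1 of the 7 loci, that of Btg2, held a peak and under ActD none did, with 15.2% and 1.00% of all tested loci. Each of these conditions had 1 library, so no test was possible, and the score of a peak is the authors' own and is used only within its list.

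At most of the loci the WDR43 peak lay over the 5′ end. At Mdm2 it ran from -0.15 to 0.67 kb of the 5′ end in DMSO and ranked in the top 5.05% of that list, and from -0.23 to 0.70 kb in FB (top 5.35%). At Ppm1d the cFB knock-in peak from -0.74 to 1.25 kb was in the top 4.56%. Other peaks ranked lower: those of Ppm1d in FB (18.3%) and DMSO (37.1%), and that of Mdm2 in cFB knock-in (25.1%). The DMSO peaks of Ccng1 (78.8%, score 57.4) and Mdm4 (82.1%, score 56.1) stood near the lowest score of 50. The DRB peak at Btg2 lay at 0.017 to 0.27 kb, in the top 15.95% of its list. At Trp53 the highest DMSO and FB peaks lay upstream, at -1.32 to -0.76 kb and -1.20 to -0.79 kb. Both spanned the 5′ end of the neighbouring Wrap53 locus, which runs on the other strand. The cFB knock-in peak spanned -0.40 to 1.39 kb. A lower-scoring FB peak (-0.22 to 0.22 kb) also spanned the 5′ end of Trp53, and no DMSO peak did.

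Cdkn1a was the only one of the 7 loci where no list held a WDR43 peak over the 5′ end. No peak of any of the 17 lists lay at its upstream start, the one with the p53 element, and the most upstream peak began 1.96 kb inside the locus. RefSeq places the downstream start, with the GC boxes shown above, 2.79 kb after the upstream one. The DMSO peaks lay at 2.54 to 2.93 kb and 4.49 to 4.75 kb, the FB peaks at 2.46 to 2.99 kb and 4.42 to 4.83 kb, and the cFB knock-in peak covered 2.35 to 4.91 kb. HypoP Pol II peaks began at 1.96 and 2.02 kb in shWDR43 and at 2.12 and 2.05 kb in shCtl and ended near 5 kb in all 4. At Mdm4 the highest hypoP peaks lay at 2.71 to 7.69 kb and 3.46 to 7.40 kb in shWDR43. In shCtl they lay at 3.55 to 6.98 kb and 3.54 to 6.996 kb. A lower-scoring hypoP peak spanned the 5′ end in 1 shWDR43 list (-1.30 to 0.69 kb). Both shCtl lists held such a peak too (-0.77 to 0.62 kb and -0.85 to 1.74 kb). WDR43 peaks of Mdm4 also lay at the 5′ end.

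**Figure D3:**
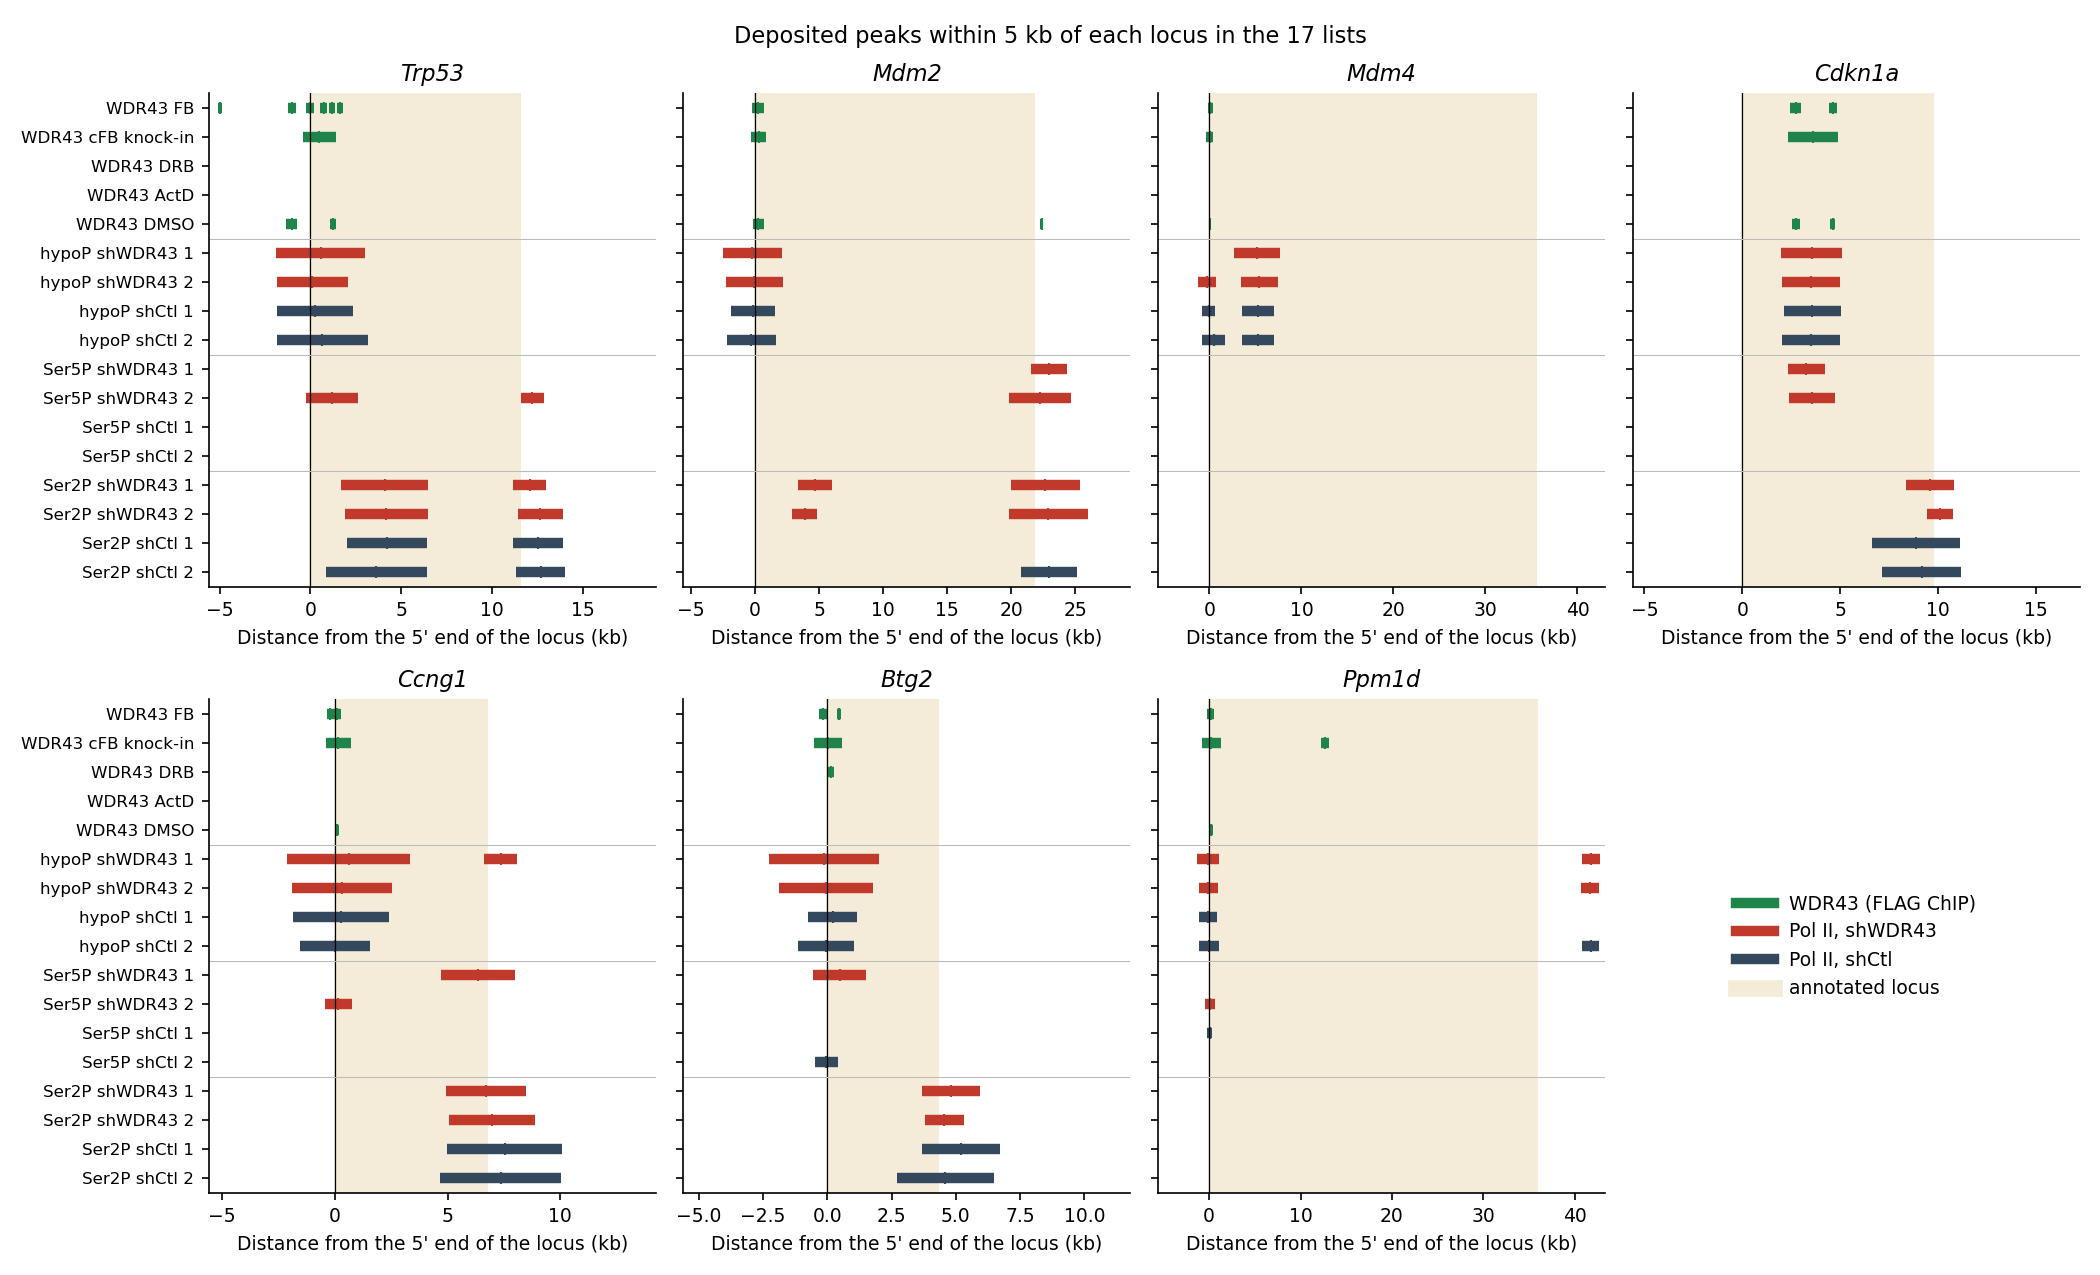
Deposited peaks within 5 kb of each locus (shaded), by distance in kb from the 5′ end, 1 row per list: 5 WDR43 lists (green), then hypoP, Ser5P and Ser2P with the shWDR43 rows (red) above the shCtl rows (dark blue). HypoP peaks stand at all 7 loci in every list, the WDR43 rows for DRB and ActD are empty except for Btg2 under DRB, and Ser2P peaks lie toward the 3′ ends of 5 loci and also inside Trp53 and Mdm2.

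HypoP Pol II was kept at all 7 loci. Each of the 4 lists held a peak at every one of the 7 genes, against 92.1% and 90.3% of all tested loci in shWDR43 and 87.1% and 87.1% in shCtl. A region counts as kept where both shWDR43 and both shCtl lists hold an overlapping peak, as gained where both shWDR43 lists and no shCtl list do, and as lost in the reverse case. Each of the 7 genes had a kept hypoP region, as did 84.9% of all tested loci, and none had a gained (12.4%) or lost (0.835%) one. Btg2 had the highest-ranked hypoP peaks in shCtl, in the top 1.13% and 1.33% of those lists, and in shWDR43 its peaks were in the top 18.2% and 9.22%. Those lists differ in length (31473 and 24485 peaks in shWDR43, 19542 and 19561 in shCtl). What lies behind the difference in rank was not tested.

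Ser5P peaks were listed at more of the 7 loci in shWDR43 than in shCtl, as they were across the genome. They stood at 4 and 5 of the 7 loci in the shWDR43 lists and at 1 and 1 in the shCtl lists, against 34.1% and 39.2% of all tested loci in shWDR43 and 11.6% and 15.1% in shCtl. The lists held 6535 and 7589 peaks in shWDR43 and 1879 and 2520 in shCtl, and how much the depth or enrichment of the libraries contributes was not tested. Gained regions lay at Mdm2 and at Cdkn1a (2 of 7 genes, against 13.1% of tested loci), and none was kept (3.52%) or lost (0.554%). At Cdkn1a the gained region ran from 2.34 to 4.74 kb, over the same stretch as the hypoP and WDR43 peaks. At Mdm2 it ran from 19.8 to 24.7 kb, across the 3′ end of the locus, and no Ser5P peak lay at the 5′ end of Mdm2 in any list. All Ser5P peaks at the 7 genes had scores of 50.5 to 84.2, so with a score of at least 100 no Ser5P region of any state was left.

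At Ccng1 each shWDR43 list held a Ser5P peak, but at different places: 4.70 to 7.99 kb in library 1 and -0.46 to 0.76 kb in library 2. Btg2 had a Ser5P peak in 1 shWDR43 list (-0.55 to 1.52 kb) and in 1 shCtl list (-0.49 to 0.40 kb), and Ppm1d also in 1 list of each group. Trp53 had 2 peaks in 1 shWDR43 list and none in shCtl. Mdm4 had no Ser5P peak in any list.

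Ser2P peaks lay toward the 3′ ends of Trp53, Mdm2, Cdkn1a, Ccng1 and Btg2, and Mdm4 and Ppm1d had none in any list. At Trp53 all 4 lists also held a peak inside the locus, at 1.71 to 6.48 kb and 1.90 to 6.45 kb in shWDR43 and at 2.02 to 6.43 kb and 0.83 to 6.44 kb in shCtl. Ser2P peaks stood at 5 and 5 of the 7 loci in the shWDR43 lists and at 4 and 5 in the shCtl lists, against 31.4% in each shWDR43 list and 33.9% and 36.4% in shCtl over all tested loci. Kept regions stood at 4 of the 7 genes (19.7% of tested loci), none was lost (4.10%) and 1 was gained (2.04%), at 2.92 to 6.03 kb inside Mdm2. With peaks of a score of at least 100 alone no region was kept, that of Mdm2 was not listed, and the 1 gained region was at Ccng1 (4.93 to 8.87 kb). At the 3′ end of Mdm2, Ser2P peaks stood in both shWDR43 lists (19.9 to 25.4 kb and 19.8 to 26.0 kb) and in 1 of the shCtl lists (20.8 to 25.2 kb), overlapping the gained Ser5P region.

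The share of the Mdm2 locus covered by Ser2P peaks was 20.8% and 17.9% in shWDR43, against 0% and 4.86% in shCtl. Both shWDR43 lists were above both shCtl lists, as at 2.58% of all tested loci (321 loci). That order needs coverage in both shWDR43 lists, and only 2400 and 2373 of the 12452 loci had any there. At Mdm2 it also held with peaks of a score of at least 100 alone (8.55% and 9.20% in shWDR43, 0% and 4.86% in shCtl). At Cdkn1a the order was the opposite, with 14.2% and 3.19% in shWDR43 against 31.9% and 26.5% in shCtl. Such an order was seen at 8.18% of tested loci (1019 loci), and it needs coverage in both shCtl lists. Only 2636 and 2888 loci had any coverage in those lists, so the order was not rare among loci able to show it. At Cdkn1a it was lost with peaks of a score of at least 100 alone (14.2% and 3.19% in shWDR43, 0% and 26.5% in shCtl). There the peaks began at 8.36 and 9.43 kb in shWDR43 and at 6.63 and 7.16 kb in shCtl, and all ended between 10.8 and 11.2 kb.

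The covered shares overlapped between the groups at Trp53 (44.4% and 40.3% in shWDR43, 41.2% and 50.5% in shCtl), at Ccng1 (26.8% and 25.1% against 26.4% and 30.5%) and at Btg2 (13.82% and 11.7% against 13.80% and 37.2%). With peaks of a score of at least 100 alone, Ccng1 was covered at 26.8% and 25.1% in shWDR43 and at 0% in both shCtl lists, so that its groups no longer overlapped, while Btg2 (13.8% and 11.7% in shWDR43, 0% and 37.2% in shCtl) still overlapped. The covered length moves with how much was called in a list, and 7.41 and 7.45 Mb were called in shWDR43 and 8.96 and 10.6 Mb in shCtl.

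**Figure D4:**
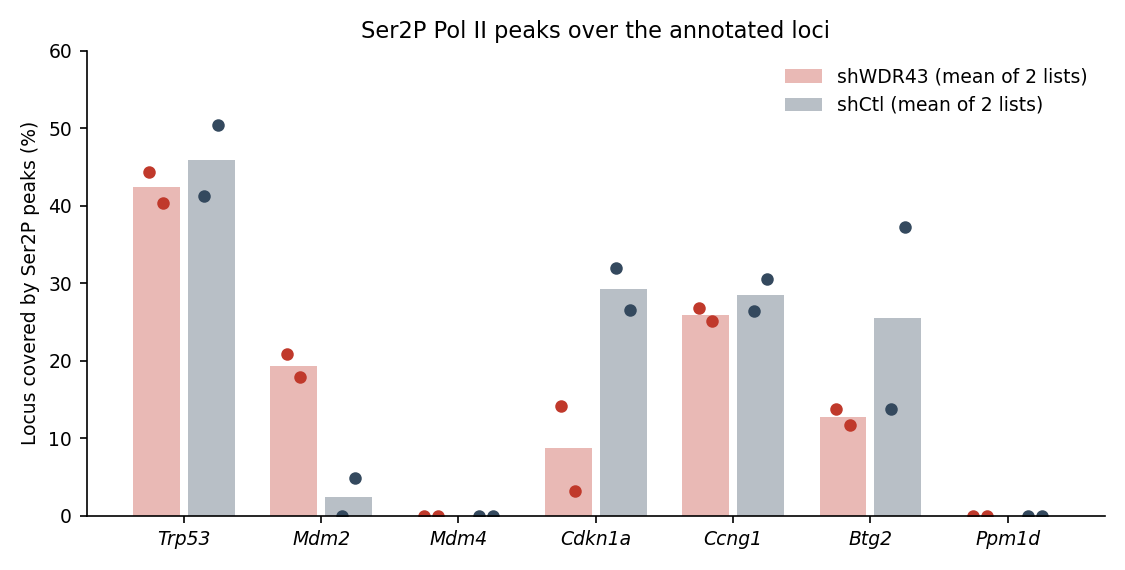
Percent of each locus covered by Ser2P peaks, 1 point per list and a bar at the mean of 2, with shWDR43 (red) left of shCtl (grey and dark blue). The shWDR43 points are above the shCtl points at Mdm2, below them at Cdkn1a, and overlap them at Trp53, Ccng1 and Btg2, while Mdm4 and Ppm1d are at 0. All deposited peaks are used, and with a score of at least 100 the order at Cdkn1a was lost and Ccng1 was covered in shWDR43 lists alone.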

How the data were processed

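RNA and ChIP-seq were measured in mouse ES cells, and samples were grouped from their titles. For RNA the authors deposited a table with 1 value per gene and library, read as FPKM on a spike-in scale; the unit was inferred from Cufflinks in the submitters' processing notes (with TopHat), and how it was scaled is not stated there. The authors' deposited table also holds a p-value without adjustment and a signed fold change between the groups, of which the fold changes are quoted. mRNA was isolated with Dynabeads, per the labels. For ChIP the authors deposited 1 peak list per library with a score per peak, at least 50 in every list, from reads aligned with Bowtie2 to mm9, per the submitters' processing notes; peak names begin with MACS, per the deposited files, and the caller's version, threshold and control are not stated in the labels or files. Read depth is unknown. Loci of the table were read as 0-based and are printed 1-based on mm9. The table gives no exons, and strands came from RefSeq.

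Genes with a mean of at least 1 FPKM were compared with limma 3.58.1 (R 4.3.3, intensity trend) on log2(FPKM + 1), a scale that understates changes of low genes, with Benjamini-Hochberg adjustment over all 12452 tested genes. The fit was tested on simulated data. Peaks counted within 5 kb of a locus and overlapped by at least 1 bp. Promoter windows are from RefSeq on GRCm38.p6 (7 of 7 genes matched), and no mm9 sequence was used. The named genes were the 7 genes, Wdr43, the 2 highest and 2 lowest of each of 3 lists, and the 5 nearest to Cdkn1a. Single markers, untested list genes and Ccnd2 were named after their values were seen. Of a locus, the peak with the highest score per list is described, and other peaks were named after they were seen. The genes and lists were chosen with earlier results of these data known, so their counts are no independent evidence. Alternatives were the pseudocount, the filter, centring, the intensity trend, a replicate block, each library left out, the window, the score and the overlap. The input, full-length, N-terminal, C-terminal, chrTAP and chrCLIP samples were not used here.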

Additional observations from a re-analysis of the deposited data

How the results depend on the processing

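The RNA design has 2 libraries a group, and leaving out any of the 4 (limma, with the lone library assumed to vary like the other group) ended every call, with 0 genes higher and 0 lower over all genes, over the 7 genes and over each list. Adjusted p then ran from 0.0617 to 0.111 for Mdm2, Cdkn1a and Btg2, from 0.0674 to 0.111 for Ccng1 and from 0.0617 to 0.113 for Trp53, while 576 to 730 genes were higher and 3928 to 4902 lower at an unadjusted p under 0.05. Log2 fold changes ran from 1.31 to 1.61 for Mdm2, from 1.46 to 1.57 for Cdkn1a, from 1.43 to 1.85 for Ccng1, from 1.67 to 1.89 for Btg2, from -0.73 to -0.59 for Trp53, from 0.02 to 0.11 for Ppm1d and from -0.29 to 0.03 for Mdm4, whose sign turned without shCtl replicate 1 (0.032). The same-numbered libraries were not shown to be pairs (correlation of their deviations 0.0504 over 12452 genes). With the replicate number as a block the 7 genes gave the same 4 higher and 1 lower calls, the fold change of Mdm2 was again 1.46 (adjusted p = 0.00148), and 840 genes were higher and 5926 lower.

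Of all tested genes, 760 were higher and 5322 lower. Without the filter on low values these were 402 and 2593, with 1 higher and 11 lower p53 regulators, 5 higher and 1 lower arrest targets and 1 higher cyclin-list gene; Wrap53, Gnl3, Cdkn1c and Rbl2 lost their calls. With a mean of at least 5 FPKM 472 genes were higher, and 1 of the cyclin list. With libraries centred 1615 genes were higher and 2606 lower, which moved the lower share of calls to 61.7% in place of 87.5%; Mdm4 turned to 0.20, Ppm1d passed at 0.39, and there were 6 higher and 12 lower regulators and 17 higher and 1 lower arrest targets. The cause of these shifts was not tested. Other settings changed no call of the 7 genes.

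At a score of at least 100, 6 lists held a peak at Trp53 (12 of all peaks), 8 at Ccng1 and 8 at Btg2 (13 each). No Ser5P region of any state was left, and 0 Ser2P regions were kept. A window of 10 kb gave 2 gained hypoP regions. Ser2P coverage over the locus with 5 kb on either side was 31.7% in shWDR43 and 35.9% in shCtl for Trp53, 25.5% and 6.95% for Mdm2, 9.64% and 21.5% for Cdkn1a, and 21.98% in shWDR43 and 31.4% in shCtl for Ccng1. At a score of at least 100 it was 0% in both groups for Trp53, 8.87% in shWDR43 and 2.43% in shCtl for Mdm2, 8.68% and 13.3% for Cdkn1a, 25.9% and 0% for Ccng1 and 12.8% and 18.6% for Btg2, and the gained Ser2P region was that of Ccng1 in place of Mdm2. Peak depth is unknown, which limits every absence of a peak.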
